A study of Mus musculus with 6 samples.

Results

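The 34 genes described here encode the machinery of mitosis: the cyclins and kinases that start it, the kinetochore and spindle, the checkpoint that times anaphase, and the proteins that divide the cell. They were chosen by gene symbol, and all 34 had a row among the 22394 genes of the deposited table. All 34 passed the filter on low values, with mean normalized counts of 838 to 10970 per gene. They were measured by RNA-seq in 6 libraries, each of kidneys taken whole from E13.5 mouse embryos. Mutants (n = 3) were Foxd1Cre;Ptch1 (flox/-), with the Cre, a floxed Ptch1 allele and a null one. Controls (n = 3) were Ptch1 (flox/+) littermates, with a floxed and an intact allele and no Cre named in the label. Foxd1 marks stromal progenitors of the kidney, so Cre driven from Foxd1 acts in the stroma and what descends from it, not in all kidney cells. The mutants differed from the controls in Cre, in deletion of the floxed allele where Cre acted and in the null allele of all cells, and these cannot be told apart.

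Mitotic genes are transcribed in waves. Their transcripts are low in G1 and climb through S and G2 to mitosis, because the MuvB complex represses them as part of DREAM in resting cells and activates them with B-Myb and FoxM1 in cycling ones. In a bulk sample their level therefore follows how many cells are in late cell cycle stages as well as how much transcript each such cell holds. The embryonic kidney at this stage grows by division of nephron progenitors, stroma and ureteric tips, and mitotic genes are abundant in all of them.

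Depth was 13261588 to 47847925 reads in mutants and 21644399 to 25416896 reads in controls. Levels are given as FPKM, here reads per length of gene, scaled by a factor for each library that is not exactly its total reads. Ptch1, the targeted gene, had 23.5, 35.8 and 29.8 FPKM in mutants 1 to 3, against 8.26, 7.91 and 7.60 FPKM in controls 1 to 3. Ptch1 is itself a Hedgehog target and the value covers the whole gene, so it does not check the deletion. On the first principal component the mutants lay at -24.6 to -20.2, controls 1 and 3 at -15.1 and 8.49, and control 2 apart from them at 75.8. Xist, made from the inactive X, had 0.103, 0.206 and 6.19 FPKM in mutants, and 72.9, 0.0471 and 53.3 FPKM in controls. Ddx3y, a Y-linked gene, had 16.2, 15.8 and 13.9 FPKM in mutants, and 0.0598, 17.8 and 0.0177 FPKM in controls, so sex was unbalanced between the groups. Mutant 3 had both transcripts, with Xist well below the libraries that lacked Ddx3y. Summed over 5 nephron progenitor, 5 stromal and 5 ureteric markers, levels were 268 to 322, 127 to 181 and 72.1 to 123 FPKM in mutants, and 235 to 353, 88.1 to 180 and 48.3 to 106 FPKM in controls. Markers of these kidney lineages were thus detected in every library. Limma called none of these 15. The authors' deposited table called 2 stromal genes and 1 ureteric gene (adjusted p under 0.05), beside 4.61% of genes with an adjusted p. In the stromal genes Pdgfra and Pdgfrb and the ureteric gene Gata3 every mutant lay above every control, as in 7.57% of all genes tested (log2 fold changes 0.82, 0.71 and 0.78, limma unadjusted p = 0.00747, 0.00666 and 0.0126). Of the 5 stromal genes 3 had a positive and 2 a negative fold change, and of the 5 ureteric genes 4 and 1. In the nephron progenitor gene Eya1 every mutant lay below every control, as in 9.09% of all genes tested (-0.46, limma unadjusted p = 0.00379). Of the 5 nephron progenitor genes 4 had a negative and 1 a positive fold change. The part of these markers in the mitotic levels was not tested.

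No mitotic gene passed the test between mutant and control kidneys over all genes, and 30 of the 34 had a lower mean in mutants. The test was limma on log2(normalized count + 1), with a Benjamini-Hochberg adjusted p under 0.05 over 16933 genes taken as a call. It called 0 of 34 mitotic genes, and 0.307% of all genes tested (0.0886% lower and 0.219% higher in mutants). The lowest adjusted p was 0.384, for Hmmr. The median log2 fold change of the 34 was -0.16, a fold of 0.893, beside -0.0074 over all genes tested. Negative fold changes made up 88.2% of the 34 and 50.9% of all genes tested. Among the 6383 genes with a mean at least as high as the lowest mitotic gene, 63.4% were negative and the median was -0.07. At an unadjusted p under 0.05 there were 3 mitotic genes, Hmmr, Ect2 and Bub1, all lower in mutants (8.82%), and 4.37% of all genes tested were lower at that p (9.63% in either direction). In 4 genes, Hmmr, Ect2, Ttk and Cdc25c, every mutant lay below every control (11.8%, beside 9.09% of all genes tested), and in none did every mutant lie above (7.57% of all genes tested). The 95% intervals of the log2 fold changes ran from -0.86 at the lowest bound to 0.38 at the highest, so none of the 34 intervals held a 2-fold change in either direction.

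**Figure D1:**
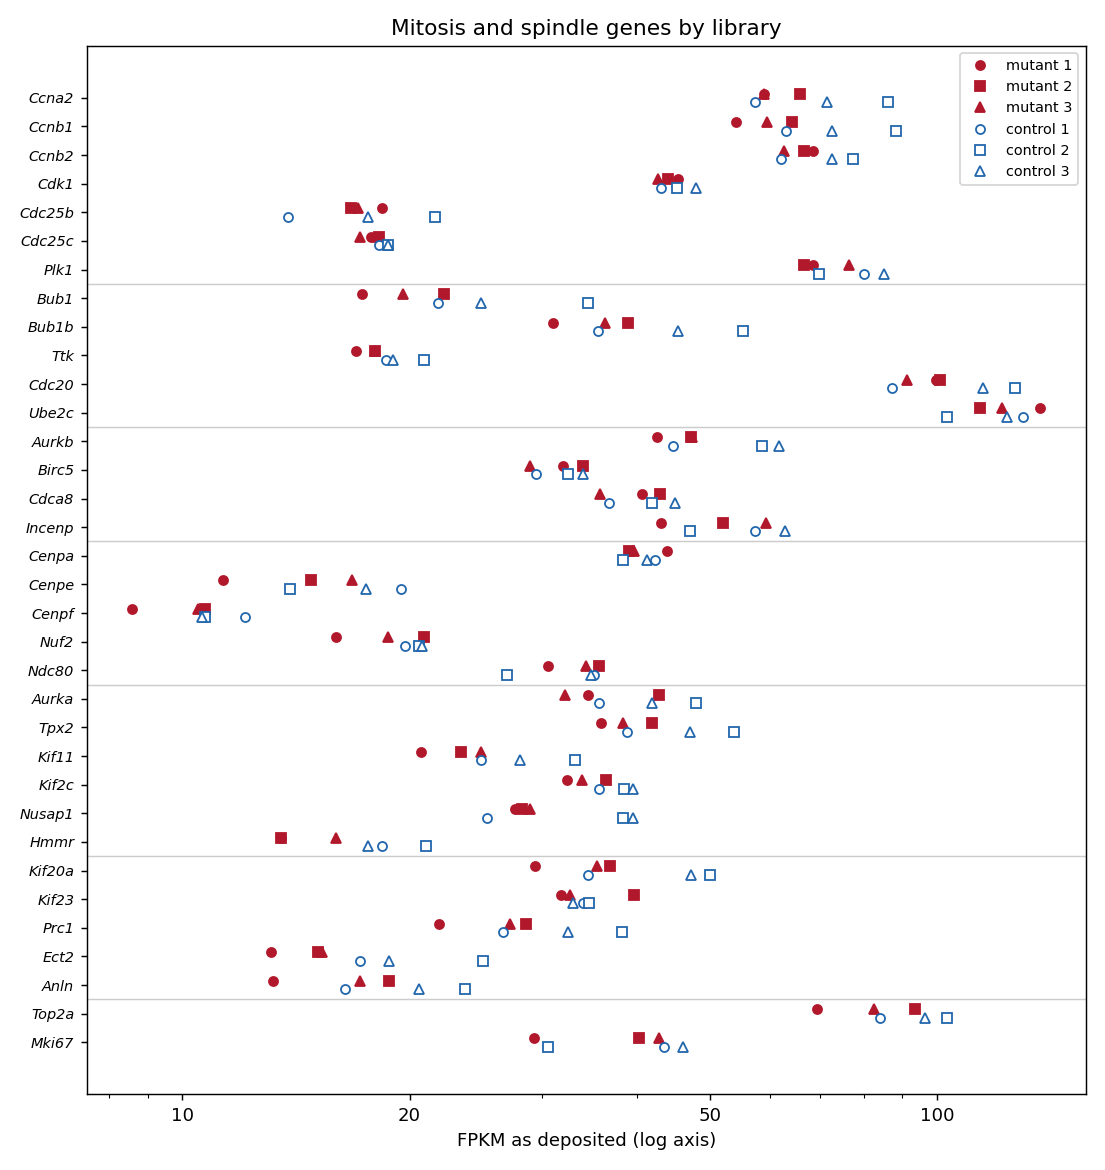
FPKM of the 34 mitotic genes (log axis) in each library, with mutants as filled red symbols above controls as open blue symbols in each row, grouped by role; for Hmmr the points of mutants 1 and 2 coincide. The groups overlap in 30 genes, and every mutant lies below every control in Hmmr, Ect2, Ttk and Cdc25c.

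The libraries of each group also differed among themselves. In 15 of the 34 genes the log2 fold change was smaller in size than the SD of the controls. Leaving out 1 library moved the fold change by over 1.5 times, or turned its sign, in 31 of the 34, the exceptions being Hmmr, Kif2c and Kif20a. The range so obtained was -0.58 to -0.31 for Ect2, -0.58 to -0.25 for Bub1, -0.44 to -0.19 for Ccnb1, -0.41 to -0.2 for Kif11 and -0.32 to -0.1 for Top2a. The summed level of the 34 genes was 1274, 1393 and 1340 FPKM in mutants 1 to 3, and 1363, 1576 and 1551 FPKM in controls 1 to 3. Control 1 thus lay within the range of the mutants, and controls 2 and 3 above it. Control 2 was the highest of the 6 libraries in 17 of the 34 genes (30.6% of all genes tested were highest there), and mutant 1 was the lowest in 19 (25.4% of all genes tested). Mutants 1 to 3 were above the 6-library mean in 7, 13 and 7 of the 34 genes, and controls 1 to 3 in 13, 27 and 33. Relative to the 6-library mean of each gene, the median mitotic gene stood at -0.20, -0.025 and -0.076 log2 units in mutants 1 to 3, and at -0.054, 0.21 and 0.13 log2 units in controls 1 to 3. The corresponding medians over all genes tested were between -0.012 and 0.019. The median SD of log2 values was 0.13 within mutants and 0.21 within controls for the 34 genes, and 0.14 and 0.18 for genes of at least their level.

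Not all mitotic genes were high in control 2. Its level was above both other controls in 18 genes and below both in 7. Mki67, the Ki-67 protein that coats mitotic chromosomes, had 29.2, 40.3 and 42.8 FPKM in mutants, against 43.5, 30.5 and 46.0 FPKM in controls. Mutant 1 and control 2 were the low libraries of that gene, at similar levels, and the groups overlapped. Top2a, the topoisomerase that untangles replicated chromosomes, had 69.3, 93.6 and 82.4 FPKM in mutants and 84.1, 103 and 96.3 FPKM in controls, and there control 2 was the highest library. Both are widely used as proliferation markers, and they had log2 fold changes of -0.093 (SE 0.21, limma adjusted p = 0.877) for Mki67 and -0.22 (SE 0.16, limma adjusted p = 0.631) for Top2a.

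**Figure D2:**
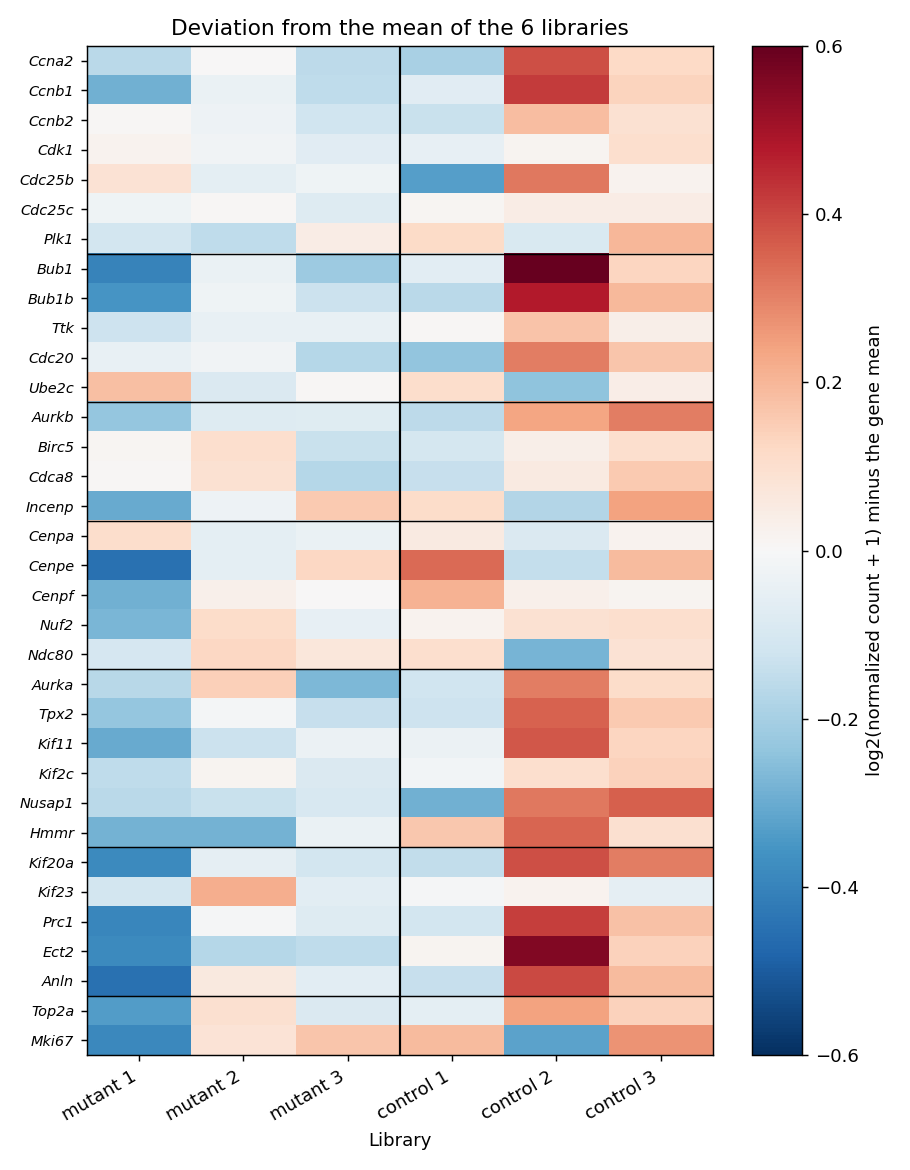
Deviation of each mitotic gene from its mean over the 6 libraries, in log2(normalized count + 1), with mutants 1 to 3 left of controls 1 to 3 and genes grouped by role. Control 2 is the highest library in 17 genes and the lowest in 3 (Ube2c, Cenpa and Ndc80; 28% of all genes tested were lowest there), and mutant 1 is the lowest in 19.

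Promoter sequences are shown because mitotic genes are known for a pair of promoter elements, and members with larger and smaller differences can be compared for them. MuvB binds the CHR element, searched here as TTTGAA on either strand (TTCAAA on the other) or TTCGAA, which reads the same on both strands. The CCAAT box, bound by NF-Y, was searched as CCAAT on either strand (ATTGG on the other), and it can share at most an end base with a CHR. RefSeq windows of 300 bases (GRCm38.p6, 250 before to 50 after the start) were matched for 28 of the 34 genes, with 30 windows. A CHR of the searched forms was found in 83.3% of these windows and in 19.2% of all 32851 promoter windows. A CCAAT box was found in 80% and 37.4%, and both in 73.3% and 7.52%. The 4 genes with the smallest unadjusted p among those matched are printed first, then Cdk1 and Ube2c, with fold changes nearer 0 or positive, and Ccnb1, with a fold change close to that of Kif11. Each line runs from 100 bases before the start to 25 bases from it, 5′ to 3′ on the strand of the gene, with CHR and CCAAT letters in capitals.
Hmmr, chr11:40733413-40733537, minus strand: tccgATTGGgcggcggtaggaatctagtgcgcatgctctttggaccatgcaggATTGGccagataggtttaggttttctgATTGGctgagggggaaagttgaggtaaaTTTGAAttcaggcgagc
Ect2, chr3:27153830-27153954, minus strand: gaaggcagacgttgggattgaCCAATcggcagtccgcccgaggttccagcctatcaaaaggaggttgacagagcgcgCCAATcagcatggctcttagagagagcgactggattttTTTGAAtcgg
Bub1, chr2:127831835-127831959, minus strand: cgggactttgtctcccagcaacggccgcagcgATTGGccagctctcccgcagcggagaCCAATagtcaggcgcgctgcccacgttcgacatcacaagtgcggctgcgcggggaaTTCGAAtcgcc
Kif11, chr19:37376282-37376406, plus strand: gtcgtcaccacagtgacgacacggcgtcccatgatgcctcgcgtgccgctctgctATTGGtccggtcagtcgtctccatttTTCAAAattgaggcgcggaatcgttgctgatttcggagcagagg
Cdk1, chr10:69352888-69353012, minus strand: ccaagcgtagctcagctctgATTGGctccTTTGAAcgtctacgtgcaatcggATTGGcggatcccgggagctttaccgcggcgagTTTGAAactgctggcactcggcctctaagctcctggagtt
Ccnb1, chr13:100786462-100786586, minus strand: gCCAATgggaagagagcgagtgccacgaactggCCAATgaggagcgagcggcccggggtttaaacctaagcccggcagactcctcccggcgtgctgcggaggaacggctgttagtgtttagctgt
Ube2c, chr2:164769829-164769953, plus strand: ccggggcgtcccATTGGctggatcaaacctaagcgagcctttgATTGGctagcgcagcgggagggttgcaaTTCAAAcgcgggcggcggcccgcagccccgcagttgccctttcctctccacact

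Each printed promoter except that of Ccnb1 held a CHR of the searched forms, and all 7 held a CCAAT box. Other forms of the CHR were not searched, so the Ccnb1 promoter cannot be said to lack one. The CHR stood at bases 9, 16 and 15 from the start in Hmmr, Ect2 and Bub1, and at base -19 in Kif11. Cdk1, with a log2 fold change of -0.045, carried 2 of them, at bases -71 and -15, and Ube2c, higher on average in mutants, carried 1 at base -29. For Ect2 the more downstream of 2 annotated starts is shown. A match of letters is a description and not a measured binding site.

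Spindle assembly genes were all lower on average in mutants. The 6 genes had log2 fold changes of -0.41 to -0.15 with a median of -0.26, and 0 of 6 were called. Hmmr, a microtubule-binding protein of spindle poles (chromosome 11, 40701395 to 40733422, GRCm38), had 1254, 1252 and 1483 normalized counts in mutants, against 1706, 1944 and 1633 normalized counts in controls. All mutants were below all controls, by a margin smaller than the spread within either group (unadjusted p = 0.012, adjusted p = 0.384 by limma for a log2 fold change of -0.41 ± 0.13, SE). Kif11, the kinesin-5 motor that pushes spindle poles apart, had 20.7, 23.4 and 24.9 FPKM in mutants and 24.9, 33.1 and 28.0 FPKM in controls. Mutant 3 and control 1 met at the boundary, and control 2 was the highest (adjusted p = 0.529 by limma for a log2 fold change of -0.31 ± 0.14, SE). Tpx2, which activates Aurora A on the spindle, averaged 38.7 ± 2.99 FPKM in mutants and 46.6 ± 7.58 FPKM in controls (SD, n = 3 each), and the Aurora A kinase gene Aurka 36.5 ± 5.61 and 41.8 ± 6.13 FPKM. Nusap1, which bundles microtubules near chromosomes, was tight in mutants at 27.6, 28.2 and 28.9 FPKM, and ran from 25.3 to 39.6 FPKM in controls. Its low control was control 1, below every mutant. The microtubule depolymerase gene Kif2c averaged 34.2 ± 2.06 FPKM in mutants and 37.9 ± 2.06 FPKM in controls.

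Genes of the central spindle and cytokinesis had the lowest median of the roles, at -0.32 over 5 genes, with 0 of 5 called. Ect2, the exchange factor that activates RhoA for the contractile ring (chromosome 3, 27097222 to 27153878, GRCm38), had 13.1, 15.1 and 15.3 FPKM in mutants, against 17.2, 25 and 18.8 FPKM in controls. It had the lowest fold change of the 34, with no overlap between groups and control 2 far above the rest (unadjusted p = 0.017, adjusted p = 0.425 by limma for a log2 fold change of -0.47 ± 0.16, SE). Without control 2 that value was -0.31 (limma adjusted p = 0.454). Kif20a, a kinesin that carries the passenger complex to the midzone, had 2490, 3133 and 3008 normalized counts in mutants and 2934, 4249 and 4012 normalized counts in controls. Control 1 fell inside the mutant range (adjusted p = 0.536 by limma for a log2 fold change of -0.36 ± 0.17, SE). Prc1, which cross-links midzone microtubules, averaged 25.9 ± 3.53 FPKM in mutants and 32.5 ± 5.84 FPKM in controls. Anln, the anillin scaffold of the contractile ring, averaged 16.4 ± 2.87 FPKM in mutants and 20.2 ± 3.68 FPKM in controls. Kif23, the kinesin of the centralspindlin complex, had a positive value, with 31.7, 39.7 and 32.6 FPKM in mutants and 34, 34.6 and 32.9 FPKM in controls (adjusted p = 0.943 by limma for a log2 fold change of 0.028 ± 0.12, SE).

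The 5 genes of the checkpoint and of anaphase ran from a log2 fold change of -0.44 to 0.065, and 0 of 5 were called. Bub1, a checkpoint kinase at kinetochores (chromosome 2, 127801122 to 127831865, GRCm38), had 17.3, 22.2 and 19.6 FPKM in mutants, against 21.8, 34.5 and 24.9 FPKM in controls. Mutant 2 exceeded control 1, and control 2 was the highest library of all (unadjusted p = 0.0414, adjusted p = 0.502 by limma for a log2 fold change of -0.44 ± 0.18, SE). Without control 2 its value was -0.25 (limma unadjusted p = 0.111). Bub1b, the BubR1 subunit of the inhibitor of anaphase, averaged 35.4 ± 4.05 FPKM in mutants and 45.4 ± 9.90 FPKM in controls. Ttk, the Mps1 kinase that recruits both, was at 17.0, 18.0 and 18.0 FPKM in mutants and at 18.6, 20.9 and 19.0 FPKM in controls. Mutants lay just below controls, at 17.6 ± 0.548 FPKM on average against 19.5 ± 1.22 FPKM (SD). The log2 fold change was -0.14 ± 0.11, SE (adjusted p = 0.646 by limma). Cdc20, the activator of the anaphase promoting complex and target of the checkpoint, averaged 97.4 ± 5.29 FPKM in mutants and 109.8 ± 20.5 FPKM in controls. Ube2c, the ubiquitin-conjugating enzyme of that complex and the most abundant of the 34 per length, had 137, 114 and 122 FPKM in mutants and 130, 103 and 124 FPKM in controls. It was the highest of the 4 positive fold changes (0.065, SE 0.14, limma adjusted p = 0.873), and control 2 was its lowest library.

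Cyclin, kinase and phosphatase genes of mitotic entry had log2 fold changes of -0.32 to -0.00047, with 0 of 7 called. Ccnb1, cyclin B1, had 54.1, 64.3 and 59.5 FPKM in mutants, against 63.0, 88.3 and 72.5 FPKM in controls. Only mutant 2 and control 1 crossed (adjusted p = 0.537 by limma for a log2 fold change of -0.32 ± 0.15, SE). Ccna2, cyclin A2, averaged 61.3 ± 4.06 FPKM in mutants and 71.7 ± 14.3 FPKM in controls, and Ccnb2, cyclin B2, 66.0 ± 2.96 and 70.7 ± 7.80 FPKM. Their shared partner kinase, Cdk1, had 45.4, 44.0 and 42.7 FPKM in mutants and 43.1, 45.2 and 48.0 FPKM in controls. Its log2 fold change was -0.045, with a 95% interval of -0.29 to 0.20. Cdc25b and Cdc25c are phosphatases that activate Cdk1. Cdc25c had 17.8, 18.2 and 17.2 FPKM in mutants and 18.2, 18.7 and 18.7 FPKM in controls, which did not overlap before rounding, with a log2 fold change of -0.066 (SE 0.11). Cdc25b averaged 17.4 ± 0.920 FPKM in mutants and 17.7 ± 3.91 FPKM in controls. Plk1, the Polo kinase that acts from entry to cytokinesis, averaged 70.5 ± 5.18 FPKM in mutants and 78.3 ± 7.88 FPKM in controls.

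The chromosomal passenger complex corrects chromosome attachments and then guides cytokinesis. Its 4 genes had log2 fold changes of -0.26 to -0.017, and 0 of 4 were called. Aurkb, its Aurora B kinase, had 42.5, 47.2 and 47.4 FPKM in mutants, against 44.7, 58.7 and 61.8 FPKM in controls. Control 1 lay within the mutant range and the other controls above it (adjusted p = 0.583 by limma for a log2 fold change of -0.26 ± 0.15, SE). Birc5, the survivin subunit, averaged 31.6 ± 2.58 FPKM in mutants and 31.9 ± 2.31 FPKM in controls. Cdca8, the borealin subunit, averaged 39.8 ± 3.63 and 41.2 ± 4.20 FPKM. Incenp, the scaffold, had 43.1, 52.1 and 59.3 FPKM in mutants and 57.4, 47.1 and 62.8 FPKM in controls, a library order unlike that of Aurkb. Among 5 kinetochore and centromere genes, of which 3 were negative and 0 called, Cenpe, the kinesin that carries chromosomes to the spindle equator, had 11.3, 14.8 and 16.8 FPKM in mutants and 19.5, 13.9 and 17.5 FPKM in controls. Its log2 fold change was -0.26 (SE 0.18, limma adjusted p = 0.629), and without control 2 it was -0.39 (limma unadjusted p = 0.0475, adjusted p = 0.491). Cenpa, the centromeric histone H3 variant, averaged 40.9 ± 2.61 FPKM in mutants and 40.7 ± 2.03 FPKM in controls. Cenpf, a large kinetochore protein, averaged 9.91 ± 1.16 and 11.1 ± 0.841 FPKM. Nuf2 and Ndc80, which pair in the complex that grips microtubules, had log2 fold changes of -0.14 (SE 0.13) and 0.059 (SE 0.14). Ndc80 had 30.5, 35.6 and 34.3 FPKM in mutants and 35.1, 26.9 and 34.8 FPKM in controls, so that control 2 was its lowest library.

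**Figure D3:**
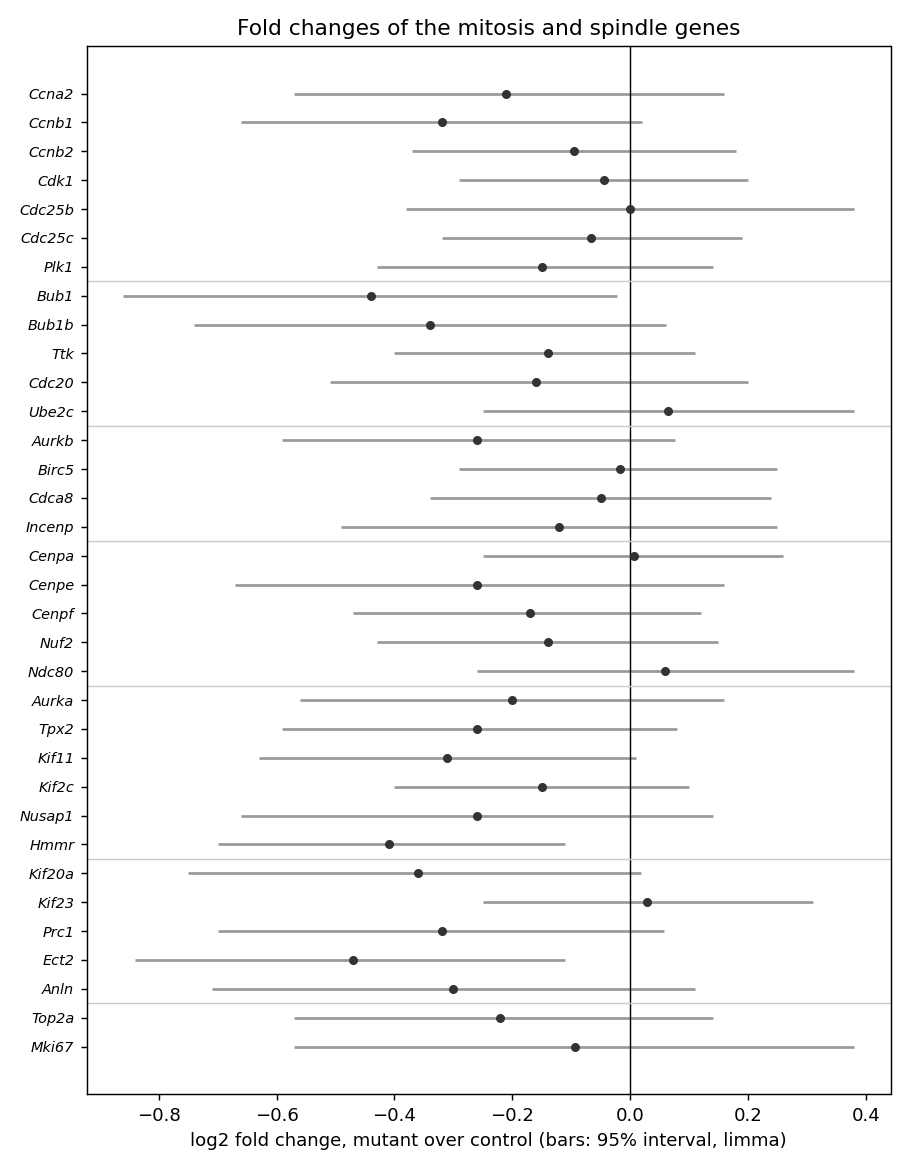
Log2 fold change (mutant over control, limma) of each mitotic gene with its 95% interval, grouped by role from the cyclins at the top to Top2a and Mki67 at the bottom. The intervals of Hmmr, Ect2 and Bub1 lie below 0, and no gene was called after adjustment over all genes.

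The authors' deposited table gave a lower median for the same genes, and it called 0 of the 34 at an adjusted p under 0.05, where it called 4.61% of the genes with an adjusted p. Of the 34, in the authors' deposited table, 14 had an unadjusted p under 0.05, all lower in mutants, beside 5.51% of all its genes. Their median log2 fold change there was -0.20, and the lowest adjusted p were 0.0532 for Bub1 (log2 fold change -0.61), 0.0561 for Ect2 (-0.60), 0.0777 for Kif20a (-0.52) and 0.0898 for Bub1b (-0.52), in the authors' deposited table. Mki67 was -0.093 in limma and 0.061 in the authors' deposited table, the only one of the 34 to differ in sign. The fold changes of that table did not weigh the 6 libraries equally. Over 5682 genes with a mean normalized count above 1000, they were a weighted sum of the libraries' log2 values with weights of 0.282, 0.277 and 0.393 for mutants 1 to 3, and 0.0203, -0.583 and -0.39 for controls 1 to 3. Control 1, the control nearest the mutants in these genes, thus had almost no weight in the authors' deposited table. Least-squares weights for a fit that compares control 2 with mutants 1 and 2, and control 3 with mutant 3, are 0.286, 0.286 and 0.429 for mutants and 0, -0.571 and -0.429 for controls. The SD of the deposited fold changes around that within-set difference was 0.0333, and around the plain difference of group means 0.156. No label names such sets, and they were chosen after the deposited table was seen. The smaller SD is therefore not separate evidence for them.

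Fitted in limma with those sets as a block, a choice made after the table was seen, 0 of the 34 were called (1.27% of all genes tested) and 14 had an unadjusted p under 0.05, all lower in mutants, beside 8.02% of all genes tested. The lowest adjusted p was 0.123. With control 1 left out and no block, 0 were called (0.0177% of all genes tested were called lower) and the count at an unadjusted p was 14, beside 7.97% of all genes tested, against 3 with all libraries. Without control 2 0 were called (0.272% called lower over all genes) and that count was 3, beside 3.6%, and without mutant 1, 0 were called (0.0177% called lower) and it was 1, beside 2.15%. These counts share the same libraries and are not separate evidence.

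Other lists of cell cycle genes had small negative medians too. From 10 lists of mitotic and S-phase genes, 158 further genes were tested, of which limma called 0. Of these 139 (88%) had a negative fold change, with a median of -0.19. At an unadjusted p under 0.05 there were 22 (13.9%), all lower in mutants, beside 4.37% of all genes tested, and in 44 (27.8%) every mutant lay below every control, beside 9.09% of all genes tested. The 20 S-phase genes made up 9 of those 22 and 12 of those 44. All 21 tested spindle motor and microtubule genes, 28 of 31 kinetochore and centromere genes, 14 of 15 cohesin and separase genes, 7 of 8 condensin genes and 17 of 19 genes of mitotic transcription were negative. The counts were 12 of 17 for the anaphase promoting complex, 10 of 14 for entry regulators, 7 of 8 for cytokinesis and 4 of 5 for the spindle checkpoint.

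Spc24, a subunit of the Ndc80 complex, had 46.7, 34.1 and 42.2 FPKM in mutants, against 58.7, 54.2 and 57.5 FPKM in controls. The controls were all above the mutants, while in Ndc80 and Nuf2 of the same complex the groups overlapped; the difference between these genes was not tested (unadjusted p = 0.00775, adjusted p = 0.321 by limma for a log2 fold change of -0.48 ± 0.14, SE). The centromere gene Cenpw averaged 7.05 ± 0.582 FPKM in mutants and 9.19 ± 0.796 FPKM in controls. Ccnf, cyclin F, averaged 23.6 ± 2.03 and 30.1 ± 2.30 FPKM, and Gtse1, a microtubule protein of G2 and mitosis, 13.4 ± 0.686 and 17.3 ± 2.65 FPKM. Dlgap5 and Numa1, which organise spindle microtubules, had log2 fold changes of -0.33 (SE 0.14) and -0.28 (SE 0.15), and the checkpoint genes Trip13 and Mad2l1 -0.37 (SE 0.17) and -0.14 (SE 0.10). The condensin genes Smc4 and Ncapg2 had -0.37 (SE 0.15) and -0.25 (SE 0.13), and the cohesin acetyltransferase gene Esco2 -0.42 (SE 0.16). Pttg1, the securin that restrains separase, was the positive gene of that list, with 42.1 ± 13.1 FPKM in mutants and 26.7 ± 7.99 FPKM in controls (adjusted p = 0.535 by limma for a log2 fold change of 0.65 ± 0.30, SE). Mutant 3 lay among the controls. Of the genes that control mitotic transcription, the E2F partner gene Tfdp1 averaged 68.6 ± 3.63 FPKM in mutants and 84.7 ± 3.41 FPKM in controls, and the repressor gene E2f8 11 ± 2.23 and 14.9 ± 1.44 FPKM. Fbxo5 and Cdc23 of the anaphase promoting complex list had -0.20 (SE 0.11) and -0.22 (SE 0.13), and Shcbp1 and Racgap1 of the cytokinesis list -0.28 (SE 0.17) and -0.20 (SE 0.14).

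The list of DNA replication and S-phase genes had a median of -0.26, with 19 of 20 genes negative, beside 50.9% of all genes tested. In 12 of its 20 genes every mutant lay below every control, against 4 of the 34 mitotic genes (11.8%) and 9.09% of all genes tested. A limma unadjusted p under 0.05 was found for 9 of 20, all lower in mutants. At that p, 3 of the 34 mitotic genes (8.82%) and 4.37% of all genes tested were lower. The difference between the lists was not tested. Rrm2, the ribonucleotide reductase subunit made in S phase, had 72.4, 80.8 and 82.6 FPKM in mutants, against 95.1, 117 and 109 FPKM in controls. The groups were apart (unadjusted p = 0.00735, adjusted p = 0.316 by limma for a log2 fold change of -0.44 ± 0.13, SE). Uhrf1, which maintains DNA methylation at replication forks, had 63.5, 71.4 and 68.0 FPKM in mutants and 78.6, 114 and 98.2 FPKM in controls. The authors' deposited table called 4 of the 158 genes, beside 4.61% of its genes with an adjusted p. All 4 were in the S-phase list: Uhrf1 (adjusted p = 0.00496 in the authors' deposited table), Mcm5 (0.0122), Pola1 (0.0333) and Rrm2 (0.0493). The limma adjusted p of these genes were 0.37, 0.471, 0.518 and 0.316 in the same order. In Pola1 mutant 2 exceeded control 1, at 8.25 against 7.93 FPKM. Mcm5 and Pola1, a helicase subunit and a polymerase subunit of replication, are named because of the authors' calls.

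**Figure D4:**
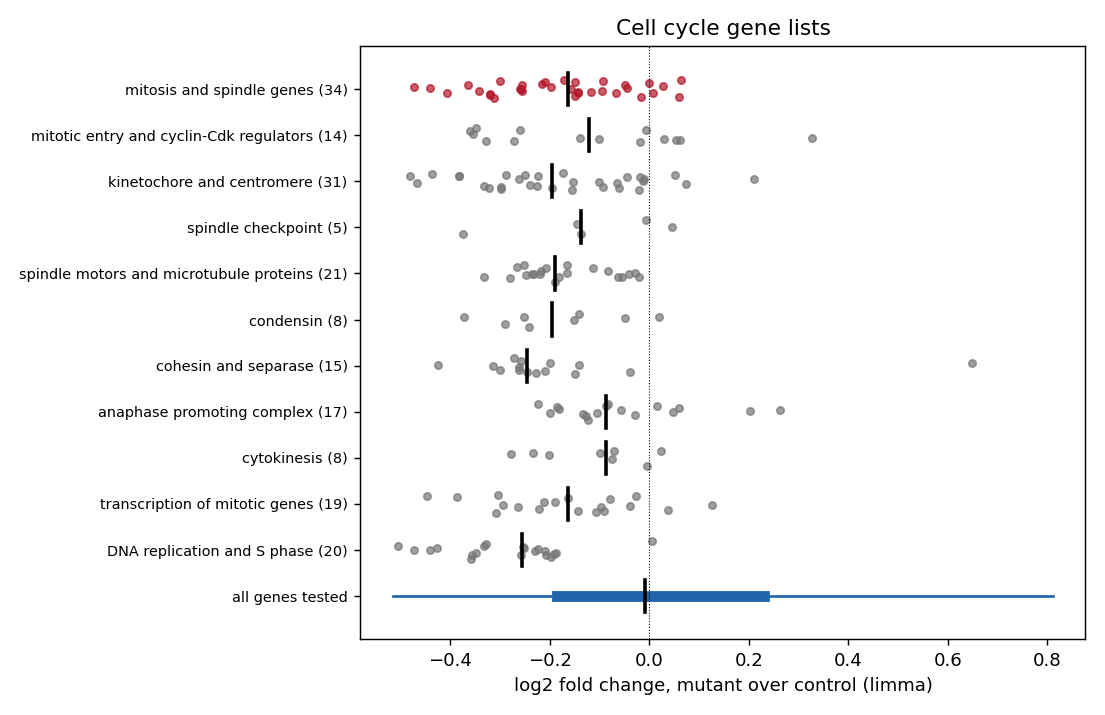
Log2 fold changes (mutant over control, limma) of the mitotic genes (red) and of 10 further cell cycle lists (grey), one point per tested gene, with each list's median as a black bar; the blue bar spans the middle 50% and the blue line the middle 90% of all genes tested. All list medians lie below 0, from -0.26 for S phase to -0.086 for cytokinesis and the anaphase promoting complex, beside -0.0074 for all genes tested.

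Of the marker lists, limma called genes in the endothelial and skeletal muscle lists. The summed level of 7 endothelial markers was 199, 206 and 248 FPKM in mutants, against 111, 101 and 113 FPKM in controls. Limma called 4 of the 7 higher (Emcn, Tie1, Esam and Cldn5), beside 0.219% of all genes tested. The sum over 6 skeletal muscle markers was 7.42, 9.79 and 7.30 FPKM in mutants and 28.1, 48.5 and 46.9 FPKM in controls. Of these 6, limma called 4 lower (Acta1, Myh3, Myog and Mylpf), beside 0.0886% of all genes tested. Macrophage markers (5 genes) summed to 12.4 to 22.9 FPKM in mutants and 8.51 to 12.3 FPKM in controls, and erythroid markers (5 genes) to 1789 to 3075 and 1666 to 3031 FPKM. Neural crest markers (6 genes) summed to 3.96 to 13.1 FPKM in mutants and 2.56 to 6.66 FPKM in controls, podocyte markers (5 genes) to 21.5 to 28.1 and 14.2 to 37.8 FPKM, and adrenal cortex markers (4 genes) were below 1 FPKM in every library. Control 2 had the lowest stromal, nephron progenitor, endothelial and neural crest sums, at 88.1, 235, 101 and 2.56 FPKM. It had the highest podocyte and skeletal muscle sums, at 37.8 and 48.5 FPKM. The part of these shifts in the mitotic levels was not tested. In whole kidneys, fewer cells in mitosis and less transcript per dividing cell cannot be told apart.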

How the data were processed

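Whole kidneys of 3 mutant and 3 control mouse embryos were sequenced as mRNA libraries, per the labels' protocols. The submitters' processing notes name build mm10 and, among the tools, DESeq2, HTSeq 0.6.1p2, STAR 2.6.0c and Trim Galore. The 6 library columns deposited by the authors were FPKM, a unit taken from the values, since no header names it. Further columns were, per the file headers, a mean normalized signal, a log2 fold change and its standard error, a Wald score and a p-value, all computed by the authors. Multiplying FPKM by mean signal over mean FPKM gave normalized counts. After division by the smallest positive normalized count of each library, 100% of 134364 values were whole reads within 1e-06. Strand use in counting was not given in the sources, so antisense reads cannot be told apart.

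limma 3.58.1 (R 4.3.3, intensity trend, no covariate) was fitted to log2(normalized count + 1) of genes with at least 10 normalized counts in 3 libraries, and tested on simulated data first. In that simulation of 3 against 3 libraries it called 10.8% of 1.5-fold, 50% of 2-fold and 90.8% of 4-fold changes. Fold changes are mutant over control. The members and gene lists were chosen with earlier results of these data known, so no list was tested as a set. All 34 mitotic genes are named; from each other cell cycle list the called genes, or otherwise the 2 with the smallest p, are named. Marker genes are named where called or where they stand beside a result, some of them chosen after their values were seen. P-values measure the spread between these samples, taken as separate embryos; no source says that each library came from 1 embryo. Gene positions are from GENCODE M21 (99.8% of identifiers matched).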

Additional observations from a re-analysis of the deposited data

How the results depend on the processing

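Limma called 0 of the 34 mitotic genes and 0 of the 158 further cell cycle genes in all 17 alternatives, and the median of the 34 stayed negative in each, from -0.23 without mutant 2 to -0.11 with quantile normalization. The number of genes called over all genes tested was 52, and 9 (without mutant 2) to 158 (without control 2) when 1 library was left out. It was 380 with estimated library weights, whose estimation stopped before convergence, 215 with the library sets of the deposited fold changes as a block, and 17 with the replicate block. Deviations from the group means had correlations of 0.000811, -0.0981 and 0.309 between the same-numbered libraries 1 to 3. Those between differently numbered libraries ran from -0.367 to 0.234. With 3 libraries a group, these values cannot show whether the numbers mark pairs. With the replicate block 9 of the 34 had a limma unadjusted p under 0.05, all lower, beside 5.95% of all genes tested. Of 578 fold changes of mitotic genes under the alternatives, 28 had the other sign, in 10 genes with fold changes near 0, and 24 genes kept their sign throughout. With quantile normalization Cdk1, Cdc25b, Birc5 and Cdca8 were at 0.021, 0.037, 0.036 and 0.026. With limma voom on whole reads Cdc25b and Birc5 were at 0.033 and 0.018, and with scaling to total reads at 0.034 and 0.018. Library weights gave -0.043 for Cenpa and -0.028 for Ube2c, and the library sets 0.051 for Mki67. Leaving out 1 library gave -0.28 to 0.077 for Mki67, -0.17 to 0.16 for Cdc25b, -0.075 to 0.047 for Birc5, -0.13 to 0.024 for Cdca8, -0.045 to 0.038 for Cenpa, -0.039 to 0.13 for Ube2c, -0.065 to 0.13 for Ndc80 and -0.073 to 0.089 for Kif23. For Incenp that range was -0.23 to 0.0047. Beyond the leaving out of samples, the cause of these changes was not tested. With 3 libraries a group and a median SE of 0.15, differences near the median of -0.16 were within the error of single genes.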
